A study of Ovis aries with 115 samples.

Results

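The comparison asked whether the cervix of Norwegian and Irish ewes differed in how its gene expression changed from the follicular to the luteal phase of a synchronised oestrous cycle. The libraries were chosen by their labels: cycle induced, phase follicular or luteal, any of the 4 breeds, and a title that did not go against the other labels. This gave 76 of the 115 libraries of the series, each from 1 ewe. The Irish breeds were Suffolk, with 11 follicular and 10 luteal ewes, and Belclare, with 10 of each. The Norwegian breeds were Fur (FUR in the labels), with 8 follicular and 9 luteal ewes, and Norwegian White Sheep (NWS; Norwegian in the labels), with 10 follicular and 8 luteal ewes. A further 38 ewes sampled at the follicular phase of a natural cycle, 18 Irish and 20 Norwegian, had no part in the interaction and served as separate animals.

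The study collected cervical tissue post-mortem from adult, multiparous ewes of breeds that differ in pregnancy rate after cervical insemination with frozen-thawed semen. All 76 ewes are labelled as having an induced cycle, which the study's methods describe for the follicular ewes as a progestagen sponge followed by gonadotrophin. The protocol of the luteal ewes and how they were staged are not given in the sources used here. Each breed was kept in 1 country only, so breed, country, flock and handling cannot be told apart, and a country value is the mean of 2 breeds. The tissue was sequenced in bulk, so fewer cells of a type and less RNA per cell cannot be told apart.

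The cervix lines its canal with a mucus-secreting epithelium over a collagen-rich stroma with smooth muscle, and it alters with the ovarian hormones. In the follicular phase oestrogen dominates, mucus becomes abundant and fluid, and the stroma loosens. In the luteal phase progesterone dominates, mucus thickens and the canal is closed. An interaction between country and phase is the difference between the luteal-minus-follicular changes of the Norwegian and the Irish breeds, given here on the log2 scale. A positive value means that the change was more positive in the Norwegian breeds, whichever phase had the higher level.

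Total counts per library ranged from 12238996 to 31261671, with a median of 17499578. The first principal component held 28.8% of the variance and divided the phases, but 9 libraries lay on the side of the other phase. They were Suffolk follicular 1 and 11, Suffolk luteal 4, 5 and 7, Fur follicular 3, NWS follicular 7, and NWS luteal 1 and 6. A further 3 libraries, Belclare luteal 3, Fur luteal 8 and NWS follicular 9, had a median correlation under 0.91 with the other synchronised libraries of all groups. GREB1, an early oestrogen target, was at 303.5 to 1116 CPM (counts scaled to library size) in the 21 Irish follicular ewes. In the 18 Norwegian follicular ewes GREB1 was at 39.1 to 631.9 CPM, and NWS follicular 7 (39.1) and Fur follicular 3 (74.1), both among the 9, lay within the luteal range. GREB1 was at 13.9 to 41.7 CPM in all Belclare luteal ewes, but reached 263 CPM in Suffolk luteal 7. The tissue had markers of epithelium (8 tested of 12 listed, summing to 304 to 1840 CPM per ewe). It also had markers of stroma (10 identifiers of 8 genes, of 12 listed, 402 to 3900 CPM). Listed markers without a symbol at hand were not tested. The 6 smooth muscle markers tested summed to a median of 259 CPM in Irish follicular, 587 in Irish luteal, 5830 in Norwegian follicular and 2470 in Norwegian luteal ewes, with 1 Irish follicular ewe at 13900.

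The phase change was largely shared, and a small set of genes differed in it by country. Between the phases, 3506 genes passed the test in the Irish breeds (22.7% of 15448 tested) and 4101 in the Norwegian breeds (26.5%), where passing means an adjusted p under 0.05 and a fold change above 1.5. Rising and falling genes made up 11.4% and 11.3% in the Irish and 14.3% and 12.3% in the Norwegian breeds. Of the passing genes, 2508 passed in both countries and in the same direction, 71.5% of the Irish and 61.2% of the Norwegian genes, and 6 passed in opposite directions. The interaction passed for 227 genes, 1.47% of those tested. It was positive for 128 (0.829%) and negative for 99 (0.641%). With no fold limit 537 genes passed, and 3060 (19.8%) had an unadjusted p under 0.05. The size of the passing interactions ran from 0.587 to 3.16 on the log2 scale, with a median size of 0.912. The fold changes of the 2 countries stood in a ratio above 2 for 64 positive and 38 negative genes, and above 4 for 14 and 9. Without Belclare follicular 2 the count was 399 and without NWS luteal 1 it was 342. With Fur left out 20 genes passed and with NWS left out 48 genes, and with Suffolk or Belclare left out 260 and 155. The cause was not tested.

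**Figure D1:**
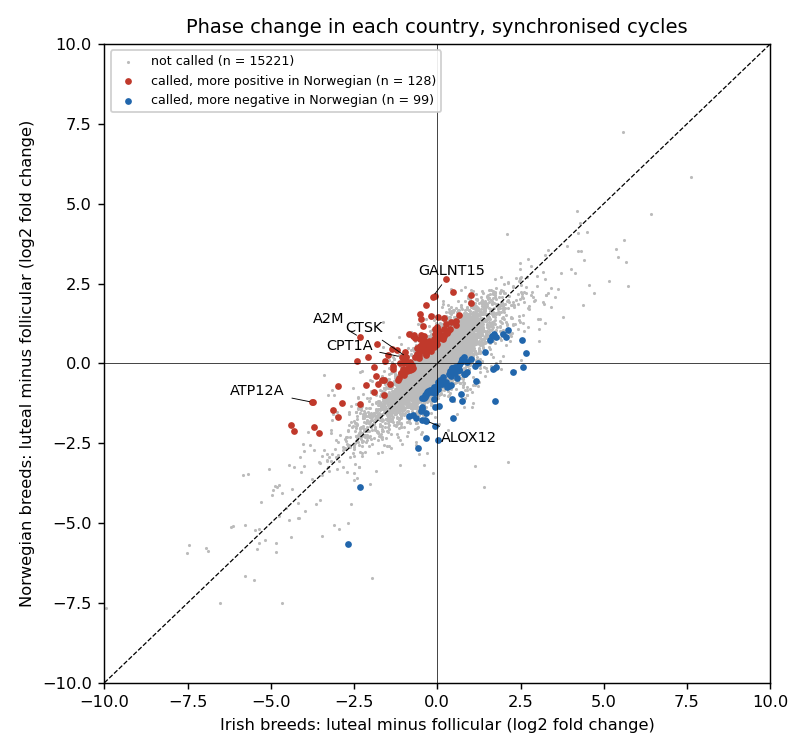
Each point is 1 of the 15448 genes tested, placed by its luteal-minus-follicular log2 fold change in the Irish breeds (x axis) and in the Norwegian breeds (y axis), with equal change on the dashed line. The 128 genes with a positive interaction (red) lie above the line and the 99 with a negative one (blue) below it, most of them close to the centre of the plot. Of the 227, 118 have changes of opposite sign (2645 of all tested), which selection by the interaction favours.

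The same interaction between the 2 breeds of 1 country gave far fewer genes. Between Suffolk and Belclare 14 genes passed (0.0906%), 8 with a more positive change in Belclare (0.0518%) and 6 in Suffolk (0.0388%), and 1877 genes (12.2%) had an unadjusted p under 0.05. None of the 14 was among the 227, of which 20 (8.81%) had an unadjusted p under 0.05 within Ireland. Only 1 of the 14 had a symbol, SMPDL3B, a phosphodiesterase of the sphingomyelinase-like family, named here after its value was seen. Its phase change was -0.19 in Suffolk and 3.46 in Belclare. Between Fur and NWS no gene passed in the edgeR test, with its own scaling or that of DESeq2, and 521 (3.37%) had an unadjusted p under 0.05. These comparisons had fewer ewes, with a median standard error of 0.223 within Ireland and 0.241 within Norway against 0.164 between the countries. In all 227 genes the changes of both Norwegian breeds lay on the same side of both Irish changes, an order found in 7321 (47.4%) of all genes tested. The 227 were selected by the interaction in these same ewes, which favours this order, so it supports nothing.

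The phase changes behind the passing interactions took several forms. Past the fold limit as well as the adjusted p, the phase change passed in the Norwegian but not the Irish breeds for 89 of the 227 genes (1587 of all 15448), and in the Irish but not the Norwegian breeds for 68 (992 of all). A change that did not pass could still have an adjusted p under 0.05, as in SLC26A11 in the Irish and ZNF283 in the Norwegian breeds. The change passed in both countries and in the same direction for 28 (2508 of all), in opposite directions for 6 (6 of all), and in neither for 36 (10355 of all). For 118 genes the estimates of the 2 countries had opposite signs (2645 of all). Selection by the interaction favours opposite signs, so this count supports nothing. HOXC6, a homeobox gene named after its values were seen, was the only one of the 6 genes of opposite direction with a symbol. It fell in the Irish breeds by 0.68 and rose in the Norwegian breeds by 0.81 (log2).

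**Figure D2:**
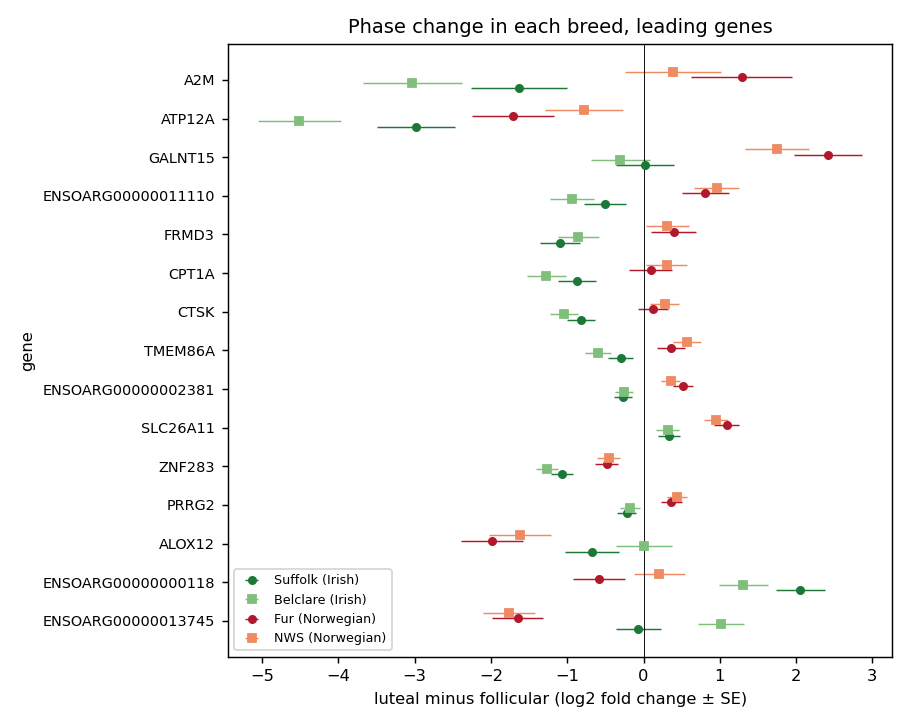
Points give the luteal-minus-follicular log2 fold change (x axis, bars ± SE) of each breed for the 15 leading genes (y axis), with the Irish breeds in green and the Norwegian breeds in red and orange. In each of the 15 genes, which were selected by the interaction in these ewes and so favour this order, both Norwegian points lie on the same side of both Irish points. ALOX12 has a change of 0.00795 in Belclare against -1.98 in Fur.

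Gene symbols were at hand for 1343 of the genes tested, and they are not an even sample. Nearly all come from the study's readable list of genes with higher expression in Suffolk than in Fur at the synchronised follicular phase, and that difference is part of the interaction. Of the genes with a symbol, 62 (4.62%) had a positive and 1 (0.0745%) a negative interaction that passed. Their median interaction was 0.21, against 0.00 over all genes tested and -0.01 over genes without a symbol, and 1059 of the 1343 estimates were positive. A count in the gene groups given next is therefore set against those of all genes with a symbol, and a positive direction in it is not independent evidence.

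Among genes of the extracellular matrix and its enzymes 5 of 40 identifiers passed (12.5%), all with a positive interaction, and 34 of 40 estimates were positive with a median of 0.31, beside 1059 of 1343 and 0.21 for all genes with a symbol. CTSK encodes cathepsin K, a protease that degrades collagen, and had the smallest p of all genes with a symbol. In the Irish breeds CTSK was at a median of 153 CPM (lowest 96.5, highest 346) in follicular ewes and 88.1 CPM (35.7 to 177) in luteal ewes. In the Norwegian breeds it was at 105 CPM (87.2 to 185) in follicular and 114 CPM (70.9 to 189) in luteal ewes. The phases overlapped in each breed, with the Belclare luteal ewes the lowest of all groups at a median of 69.6 CPM. CTSK fell in the Irish breeds by 0.93 and had a change of 0.21 in the Norwegian breeds (adjusted p = 0.186), an interaction of 1.13 ± 0.19 (SE; adjusted p = 0.000233).

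COMP encodes a cartilage oligomeric matrix protein that binds collagen. Its Irish ewes went from a median of 4.29 CPM (2.13 to 7.74) in the follicular to 1.37 CPM (0.581 to 2.98) in the luteal phase. Its Norwegian ewes were at 1.39 CPM (1.04 to 8.19) and 1.23 CPM (0.504 to 1.94). The Irish follicular ewes stood highest, apart from NWS follicular 4 at 8.19 CPM, and the phases overlapped in both countries. The interaction of COMP was 1.16 ± 0.28 (SE; adjusted p = 0.0121). FBLN7, a fibulin, had an interaction of 1.07, MXRA8, a matrix remodelling protein of fibroblasts, 1.0, and SPOCK1, a matrix proteoglycan named after its value was seen, 1.64. Without NWS luteal 3 the interaction of MXRA8 was 0.946 and no longer passed (adjusted p = 0.0521). The summed level of the 10 stromal marker identifiers was lower at the luteal phase in both countries, with medians of 2040 and 1100 CPM in Irish and 1570 and 977 CPM in Norwegian ewes, and its part in these results was not tested.

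A2M, which encodes alpha-2-macroglobulin, an inhibitor of many secreted proteases, had the largest interaction of the passing genes. Its Irish ewes were at a median of 16.9 CPM (2.51 to 210.5) in the follicular and 3.46 CPM (0.433 to 55.8) in the luteal phase. Its Norwegian ewes were at 50.5 CPM (17.55 to 150.5) and 75.45 CPM (10.8 to 572.4). At the luteal phase 19 of the 20 Irish ewes were at or below 13.1 CPM, and Belclare luteal 9 reached 55.8 CPM. Belclare luteal 9 and Belclare luteal 2, at 13.1 CPM, lay within the Norwegian luteal range. The highest Norwegian ewe was Fur luteal 8, one of the 3 libraries of low correlation. A2M fell in the Irish breeds by 2.33 and its change of 0.82 in the Norwegian breeds did not pass (adjusted p = 0.123), an interaction of 3.16 ± 0.66 (SE; adjusted p = 0.0041). Without Fur luteal 8 the interaction of A2M was 2.8.

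Among lysosomal proteins 3 of 38 identifiers passed (7.89%), and with no fold limit 9 did, all positive. MANBA, a beta-mannosidase, had an interaction of 0.80 and SCPEP1, a serine carboxypeptidase, one of 0.71, and both were named after their values were seen. In 34 of the 38 the estimate was positive, with a median of 0.32, again beside 1059 of 1343 for all genes with a symbol. In the Irish breeds 22 of 38 fell towards the luteal phase and 3 rose, and in the Norwegian breeds 10 fell and 3 rose. Over all genes tested, 11.3% fell and 11.4% rose in the Irish, and 12.3% fell and 14.3% rose in the Norwegian breeds. All genes with a symbol had median changes of -0.19 in the Irish and 0.00 in the Norwegian breeds. The source of the symbols favours an Irish fall, so this contrast is not independent evidence. SGSH, a sulphamidase that breaks down heparan sulphate, went from a median of 104 CPM (64.5 to 143) to 51.4 CPM (38.3 to 98.5) in Irish ewes. In Norwegian ewes SGSH went from 46.0 CPM (34.1 to 78.9) to 39.0 CPM (31.5 to 52.1). Its interaction of 0.57 had an adjusted p of 0.0106 and stayed under the fold limit with all ewes, as did those of FUCA2, a fucosidase (0.57), and LAMP1, a lysosomal membrane protein (0.32). SGSH passed the limit when any of 8 single ewes was left out and FUCA2 when any of 14 was.

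**Figure D3:**
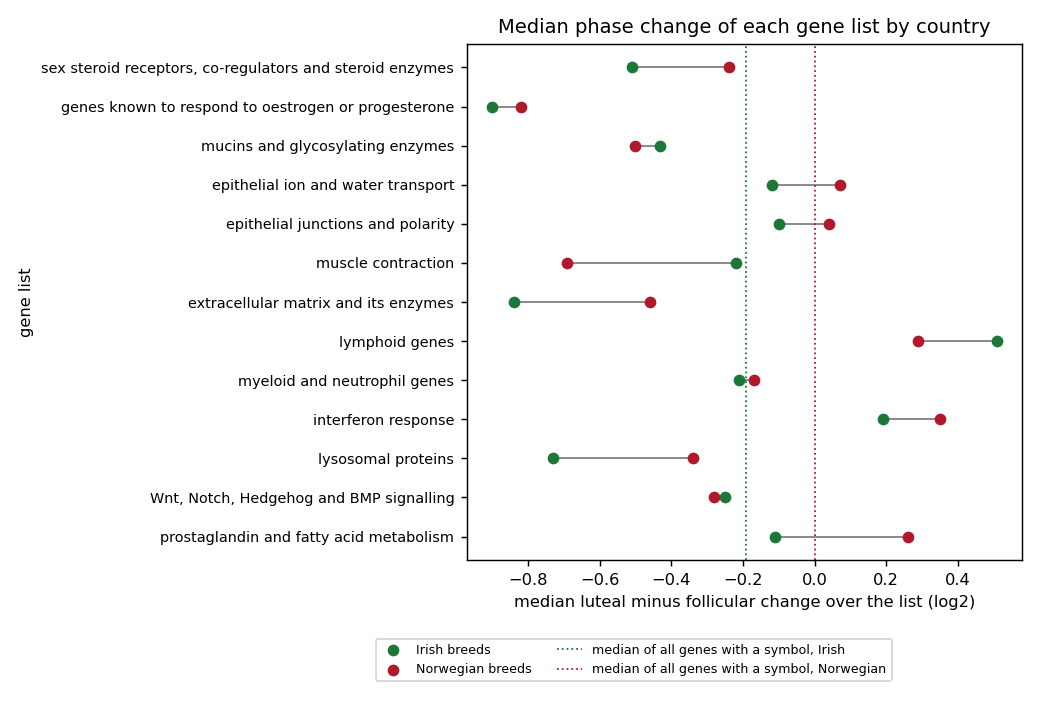
Each line joins the median luteal-minus-follicular log2 change (x axis) of 1 gene list (y axis) in the Irish (green) and Norwegian (red) breeds, and dotted lines give the medians over all genes with a symbol. The lysosomal list lies at -0.73 in the Irish and -0.34 in the Norwegian breeds and the matrix list at -0.84 and -0.46, whereas the hormone-responsive list lies at -0.90 and -0.82.

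In fatty acid and prostaglandin metabolism 2 of 15 genes passed, in opposite directions. CPT1A encodes the carnitine palmitoyltransferase that admits long-chain fatty acids into mitochondria for oxidation. Its Irish ewes were at a median of 141 CPM (72.7 to 232) in the follicular and 61.5 CPM (23.0 to 149) in the luteal phase. Its Norwegian ewes were at 42.1 CPM (19.9 to 115) and 49.99 CPM (21.2 to 109). At the follicular phase 17 of the 18 Norwegian ewes were at or below 65.1 CPM, under all 21 Irish ewes, and NWS follicular 2 was the exception. At the luteal phase the countries overlapped. CPT1A fell in the Irish breeds by 1.07 and had a change of 0.20 in the Norwegian breeds (adjusted p = 0.371), an interaction of 1.27 ± 0.26 (SE; adjusted p = 0.00408). The CPT1A interaction no longer passed when Belclare, Fur or NWS was left out.

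ALOX12 encodes a lipoxygenase that converts arachidonic acid, and was the only gene with a symbol whose negative interaction passed. It was at a median of 126.5 CPM (36.9 to 355) in Irish follicular and 81.3 CPM (25.1 to 292) in Irish luteal ewes. In Norwegian ewes ALOX12 was at 104 CPM (50 to 210) in the follicular and 24.7 CPM (6.50 to 129) in the luteal phase. All 9 Fur luteal ewes, the highest at 45.9 CPM, lay below all 8 Fur follicular ewes, the lowest at 50 CPM. ALOX12 fell in the Norwegian breeds by 1.79 and had a change of -0.34 in the Irish breeds (adjusted p = 0.257), an interaction of -1.45 ± 0.38 (SE; adjusted p = 0.0189). PTGS1, the constitutive cyclooxygenase, rose at the luteal phase in both countries, by 1.11 in the Irish and 1.0 in the Norwegian breeds, with an interaction of -0.10 (adjusted p = 0.886), which turned to 0.02 without NWS follicular 4. TMEM86A, of a family that cleaves lysoplasmalogens, had a level of 9.17 CPM in Irish follicular and 4.72 CPM in Norwegian follicular ewes, and of 6.03 and 6.64 CPM in the luteal phase (medians). Its interaction was 0.91 (adjusted p = 0.00266), with neither country's change past the fold limit.

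Mucins and glycosylating enzymes had 2 of 18 genes with an interaction that passed (11.11%), both enzymes. GALNT15 is a transferase of the family that starts mucin-type O-glycosylation. It was at a median of 2.08 CPM (0.486 to 3.54) in Irish follicular and 1.74 CPM (0.433 to 4.56) in Irish luteal ewes. In Norwegian ewes it was at 0.995 CPM (0.363 to 2.33) in the follicular and 3.09 CPM (1.01 to 27.3) in the luteal phase. Fur luteal 8 stood far above the next ewe, at 7.36 CPM, and without it the interaction of GALNT15 was 1.82 against 2.22 ± 0.41 (SE; adjusted p = 0.00142) with it. GALNT15 rose in the Norwegian breeds by 2.08 and had a change of -0.14 in the Irish breeds (adjusted p = 0.683). ST6GAL2, a sialyltransferase, fell in both countries, by 2.98 in the Irish and 1.66 in the Norwegian breeds. The gel-forming mucins had wide spreads within groups. MUC5B was at 116.5 CPM (30.2 to 446) and 47.3 CPM (20.35 to 137.5) in Irish and at 72.3 CPM (0.778 to 97.4) and 30.2 CPM (6.28 to 81.2) in Norwegian ewes. Its interaction was 0.44 (adjusted p = 0.573), and that of MUC5AC -1.25 (adjusted p = 0.48). Without Suffolk follicular 2 these were 0.26 for MUC5B and -2.33 for MUC5AC, and without Belclare luteal 7 the MUC5AC interaction turned to 0.21, none of them past the test.

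**Figure D4:**
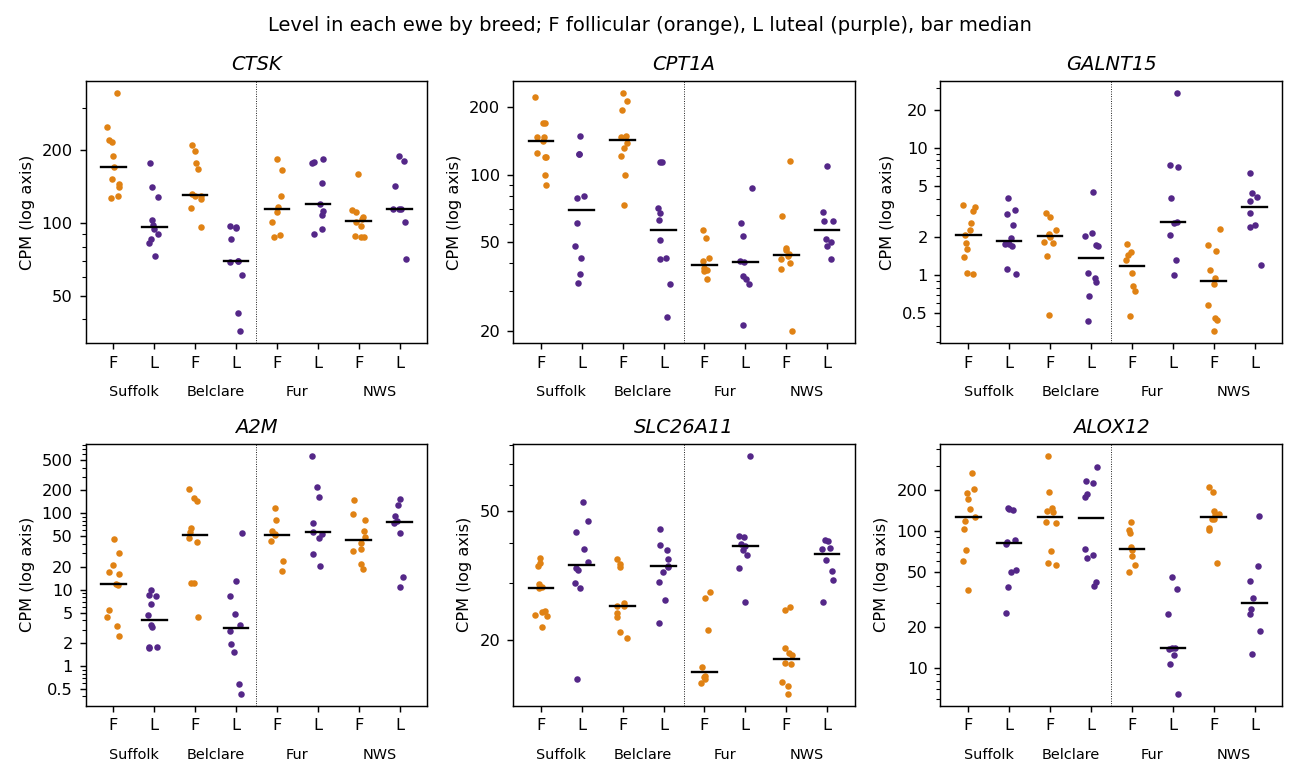
Each point is 1 of the 76 ewes, with CPM on a log axis (y) by breed and phase (x; F follicular in orange, L luteal in purple) for 6 genes, and black bars are group medians. CTSK, CPT1A and A2M are lower at the luteal phase in Suffolk and Belclare only, GALNT15 and SLC26A11 differ more between phases in Fur and NWS, and ALOX12 is lowest in Fur and NWS luteal ewes.

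In epithelial ion and water transport 3 of 30 genes passed (10%), and 27 of 30 estimates were positive, beside 1059 of 1343 for all genes with a symbol. SLC26A11, an anion exchanger that carries sulphate, rose in the Norwegian breeds by 1.02, and its Irish change of 0.33 (adjusted p = 0.00513) stayed under the fold limit. Its medians were 25.5 CPM (20.25 to 35.9) and 33.8 CPM (15.25 to 53.4) in Irish, and 17.0 CPM (13.7 to 28.1) and 38.3 CPM (26.2 to 74.1) in Norwegian ewes. The SLC26A11 interaction was 0.69 ± 0.15 (SE; adjusted p = 0.0067). ATP12A, a proton and potassium pump of epithelial surfaces, fell at the luteal phase in both countries, by 3.73 in the Irish and 1.22 in the Norwegian breeds, an interaction of 2.51 ± 0.53 (SE; adjusted p = 0.00471). ATP12A was at a median of 4.72 CPM (2.04 to 24.0) in Irish and 2.09 CPM (0.0573 to 4.89) in Norwegian follicular ewes. It was at 0.436 CPM (0 to 1.36) in Irish luteal ewes, of which 5 had 3 counts or fewer, and at 0.771 CPM (0.0636 to 3.83) in Norwegian luteal ewes. The 21 Irish follicular ewes all lay above the 20 Irish luteal ewes, while the Norwegian phases overlapped. SCNN1D, the delta subunit of the epithelial sodium channel, had the same form at low level, falling by 3.14 and by 1.47.

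Genes of epithelial junctions and polarity had no interaction that passed with edgeR, DESeq2 or limma among 26 identifiers, and 4 had an unadjusted p under 0.05. With the mean log2 level of the smooth muscle genes ACTG2 and DES as a covariate, 2 passed. CLDN3, a tight junction claudin, had an interaction of 0.61 (adjusted p = 0.143).

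Among sex steroid receptors, co-regulators and steroid enzymes 1 of 13 genes passed. HSD11B1 encodes the enzyme that regenerates active cortisol from cortisone. It was at a median of 24.1 CPM (9.79 to 118.5) in Irish follicular and 1.85 CPM (0.528 to 6.03) in Irish luteal ewes. It was at 16.9 CPM (3.90 to 32.6) in Norwegian follicular and 3.30 CPM (1.61 to 7.78) in Norwegian luteal ewes. The phases did not overlap in the Irish breeds and did in the Norwegian breeds, where NWS luteal 6 was the highest luteal ewe and one of those on the follicular side of the first component. HSD11B1 fell in both countries, by 3.54 and by 2.17, an interaction of 1.37 ± 0.36 (SE; adjusted p = 0.0192). The HSD11B1 interaction no longer passed when any 1 breed was left out, nor without the 9 libraries on the side of the other phase. ESR2, the beta oestrogen receptor, had an interaction of 0.72 (adjusted p = 0.509), and FKBP5, a glucocorticoid and progesterone target, one of 0.46 (adjusted p = 0.368).

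Of genes known to respond to oestrogen or progesterone 1 of 20 identifiers passed. KLF11, a Krüppel-like repressor, was at a median of 22.6 CPM (11.1 to 36.4) in Irish follicular and 12.4 CPM (7.30 to 54.1) in Irish luteal ewes. It was at 8.74 CPM (5.17 to 28.9) and 13.9 CPM (7.36 to 32.5) in Norwegian ewes. Its interaction was 1.17 ± 0.28 (SE; adjusted p = 0.0112), with a phase change of 0.06 in Suffolk and -0.96 in Belclare. KLF9, a progesterone receptor partner, had an interaction of 0.50 (adjusted p = 0.0468), under the fold limit. GREB1 fell steeply in both countries, by 4.01 in the Irish and 2.74 in the Norwegian breeds, and its interaction of 1.28 had an adjusted p of 0.0644. OXTR, the oxytocin receptor, fell by 2.01 in the Irish and 3.78 in the Norwegian breeds, with an interaction of -1.77 (adjusted p = 0.342). Suffolk luteal 7 held 232 CPM of OXTR, the highest of all 76 ewes. Without it the OXTR interaction turned to 0.43 (adjusted p = 0.809) and that of GREB1 passed, at 1.5 (adjusted p = 0.0217), as it did without any of 4 other ewes. Without NWS follicular 9 the OXTR interaction was -1.02.

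In muscle contraction 1 of 11 genes passed with edgeR and DESeq2 and 5 with limma. The edgeR call was HRC, a calcium-binding protein of the sarcoplasmic reticulum, with an interaction of 1.01 (adjusted p = 0.0189). The list's median interaction was -0.52, opposite to that of HRC. None of the 6 smooth muscle markers passed with edgeR or DESeq2, 4 did with limma, and 1 had an unadjusted p under 0.05. DES, which encodes desmin, was at a median of 185 CPM (17.1 to 8068) in Irish follicular and 430 CPM (59.0 to 1640) in Irish luteal ewes. It was at 3182 CPM (876 to 5236) in Norwegian follicular and 1709 CPM (405 to 7125) in Norwegian luteal ewes. Belclare follicular 2 was the Irish ewe at 8068 CPM. The interaction of DES was -0.89 (adjusted p = 0.48), and that of ACTG2, enteric smooth muscle actin, -0.94 (adjusted p = 0.404). Without Belclare follicular 2 both passed, DES at -2.07 (adjusted p = 0.00787) and ACTG2 at -2.09 (adjusted p = 0.00347). With the mean log2 level of ACTG2 and DES as a covariate, an alternative added after the data were seen, all 227 genes kept the sign of their interaction, 138 of them passed, and 610 genes passed in all, 429 positive. In that fit CTSK, CPT1A, A2M, GALNT15, ATP12A and SLC26A11 passed and ZNF283 and PRRG2 did not.

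The immune lists stand beside 4.62% positive and 0.0745% negative passing interactions among all genes with a symbol. No gene of 29 lymphoid identifiers passed with edgeR, 1 did with DESeq2, 1 with limma and 2 with the smooth muscle covariate. Of the 29, 6 had an unadjusted p under 0.05, and 13 estimates were positive with a median of -0.14, beside 1059 of 1343 and 0.21 for all genes with a symbol. IGHG3, an immunoglobulin heavy chain with 2 identifiers that can share reads with other chains, had interactions of -1.94 (adjusted p = 0.173) and -1.89 (adjusted p = 0.18). Without Suffolk follicular 2 both IGHG3 identifiers passed, at -2.66 and -2.63, and without Belclare luteal 7 they were at -1.22 and -1.22. The 8 tested marker identifiers of B and plasma cells summed to medians of 2360 and 4300 CPM in Irish and 1120 and 735 CPM in Norwegian follicular and luteal ewes, ranging from 114 to 64800 CPM. No interferon response gene of 29 identifiers passed with edgeR, DESeq2 or limma, and 2 had an unadjusted p under 0.05. Of 22 myeloid and neutrophil genes 1 passed with edgeR (4.55%), against 2 with DESeq2, 1 with limma and 0 with the smooth muscle covariate. The edgeR call was GPNMB, a glycoprotein of lipid-laden macrophages (interaction 1.68, adjusted p = 0.0422), and the removal of any of 34 single ewes ended that call. No Wnt, Notch, Hedgehog or BMP gene of 32 passed with edgeR, DESeq2 or limma, 2 did with the smooth muscle covariate, and 3 had an unadjusted p under 0.05.

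Of the other leading genes, FRMD3, a cytoskeletal FERM domain protein, fell in the Irish breeds by 0.97 and had a change of 0.35 in the Norwegian breeds (adjusted p = 0.126). Its interaction was 1.32 ± 0.27 (SE; adjusted p = 0.00408). ZNF283, a zinc finger gene of a family with close copies, fell in the Irish breeds by 1.16 and had a change of -0.47 in the Norwegian breeds, under the fold limit, an interaction of 0.69. PRRG2, a transmembrane Gla protein, had an interaction of 0.60, just over the limit of 0.585, and lost the call when any of 10 single ewes was left out. MT-ND6, a mitochondrially encoded subunit of complex I, had medians of 15.15 and 9.63 CPM in Irish and 9.95 and 9.86 CPM in Norwegian ewes, follicular and luteal. Its interaction was 0.89 ± 0.20 (SE; adjusted p = 0.00725). COX-1, which is encoded in the same genome, was at 26.0 to 50.7 CPM in Fur ewes over both phases and at 1338 to 2141 CPM in NWS ewes, and its interaction of 0.18 did not pass (adjusted p = 0.291). PI16, a secreted peptidase inhibitor, had an interaction of 0.74 (adjusted p = 0.596), which turned to -0.59 without Belclare follicular 2 (adjusted p = 0.535) and was 0.42 without NWS luteal 6.

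The remaining genes with a symbol that passed were outside the rule for named genes, and the following were chosen after their values were seen. NR1D1, a repressor of the circadian clock, rose in the Norwegian breeds by 1.44 and had a change of 0.03 in the Irish breeds (adjusted p = 0.928), with Fur at 1.67 and NWS at 1.23. TTR, a thyroid hormone and retinol carrier, fell in both countries, with a log2 change of -4.41 in the Irish and -1.91 in the Norwegian breeds. HTRA4, a secreted serine protease, fell in the Irish breeds by 2.98 and had a change of -0.70 in the Norwegian breeds (adjusted p = 0.101). The growth regulators CDKN2D, an inhibitor of cyclin-dependent kinases, and HBP1, a transcriptional repressor, had interactions of 1.07 and 0.61. MXI1, a MYC antagonist, rose in the Norwegian breeds by 0.81 and had a change of 0.05 in the Irish breeds (adjusted p = 0.764), whereas MXD3, of the same family, fell in the Irish breeds by 0.87 and had a change of -0.14 in the Norwegian breeds (adjusted p = 0.412). EVX1, a homeobox gene, rose in the Norwegian breeds by 1.55 and had a change of -0.53 in the Irish breeds (adjusted p = 0.151).

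Of the 99 genes with a negative interaction 98 had no symbol. ENSOARG00000013745 had the smallest p of all genes. Its Irish ewes were at a median of 43.9 CPM (15.2 to 108) in the follicular and 65.9 CPM (12.7 to 176) in the luteal phase. Its Norwegian ewes were at 124 CPM (42.0 to 307) and 39.6 CPM (19.8 to 65.8). Norwegian follicular ewes stood highest, and the gene fell in the Norwegian breeds by 1.71 with a change of 0.46 in the Irish breeds (adjusted p = 0.0684), an interaction of -2.17 ± 0.33 (SE; adjusted p = 8.53e-05). ENSOARG00000000118 rose in the Irish breeds by 1.69 and had a change of -0.18 in the Norwegian breeds (adjusted p = 0.543), an interaction of -1.86. Its Irish follicular ewes were at a median of 2.87 CPM, with Belclare follicular 2 alone at 19.1 CPM, and the medians of the other 3 country and phase groups were between 9.99 and 11.7 CPM. The unnamed genes of smallest p with a positive interaction were ENSOARG00000002381, at 0.70 (adjusted p = 0.000543), and ENSOARG00000011110, at 1.6 (adjusted p = 0.0014). Without Fur luteal 8, at 222 CPM, the interaction of ENSOARG00000002381 was 0.58 and under the fold limit.

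At the follicular phase the countries differed in 2745 genes (17.8%) and at the luteal phase in 1969 (12.7%). Genes higher in the Norwegian breeds made up 8.94% and 7.16%, and those higher in the Irish breeds 8.83% and 5.59%. The interaction is the difference between these contrasts, so the following counts describe its shape and support nothing. Of the 227 genes 116 differed between countries at the follicular phase only, 44 at the luteal phase only, 14 at both and 53 at neither. The genes with a positive interaction were lower in Norwegian than in Irish ewes at the follicular phase (median log2 difference -0.61) and higher at the luteal phase (0.36). Those with a negative interaction had medians of 0.77 and -0.19.

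The 38 ewes of the natural cycle gave a follicular country difference in animals that the interaction had not used. There 2093 genes passed (13.5%), 8.03% of all tested higher and 5.52% lower in Norwegian ewes, and so did 42 of the 227 (18.5%). Of the 130 genes that differed by country at the synchronised follicular phase, 27 also differed at the natural one, 21 of them in the same direction. Over all genes tested, 1177 of 2745 did so, 1147 of them in the same direction. The median country difference was 0.07 for the positive and -0.10 for the negative genes. The 227 were selected in part by the synchronised follicular difference. Such selection favours smaller differences and fewer kept calls in other ewes, so these medians and counts support nothing. CPT1A was at a median of 73.8 CPM (52.4 to 211) in Irish and 74.7 CPM (34.8 to 148) in Norwegian natural follicular ewes, scaled among natural libraries alone. The fitted log2 difference of CPT1A in these natural ewes was -0.35 (adjusted p = 0.185). CTSK was at 124 and 128 CPM there, and SLC26A11 at 22.8 and 24.4 CPM. A2M was at 15.35 CPM in Irish and 47.3 CPM in Norwegian natural follicular ewes, with a log2 difference of 0.69 (adjusted p = 0.228). ENSOARG00000013745 was lower in Norwegian natural ewes by 1.21 on the log2 scale, whereas it was higher by 1.37 in Norwegian synchronised follicular ewes.

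**Figure D5:**
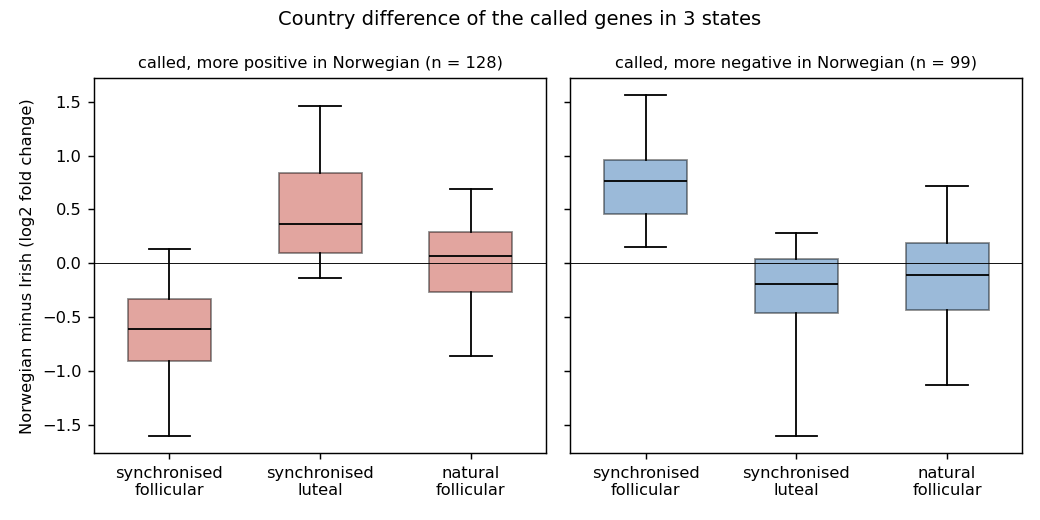
Boxes give the quartiles and median, and whiskers the 5 and 95 percentiles, of the Norwegian-minus-Irish log2 difference (y axis) over the 128 genes with a positive (left) and the 99 with a negative interaction (right) in 3 states (x axis). Medians run from -0.61 at the synchronised follicular to 0.36 at the luteal phase for the positive genes and from 0.77 to -0.19 for the negative genes. They lie at 0.07 and -0.10 in natural follicular ewes, where selection in the synchronised ewes favours smaller differences.

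When the natural follicular ewes took the place of the synchronised follicular ewes, with the same luteal ewes, 28 genes had an interaction that passed. Of these 11 were among the 227, and 150 of the 227 (66.1%) kept their sign, with a median of 0.30 for the positive and 0.00 for the negative genes. GALNT15, A2M, SCNN1D, HSD11B1 and ENSOARG00000000118 passed in both. The same luteal ewes had a part in selecting the 227, which favours kept signs and calls, so these counts are not independent evidence. The hormone treatment, the flock and the time of collection could differ between these follicular groups and cannot be told apart.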

How the data were processed

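RNA of the cervix was sequenced in bulk, 1 library per ewe. After trimming, the authors mapped read pairs with STAR (2.6.1b in the submitters' processing notes) against the Oar_v3.1 assembly and deposited raw counts of read pairs per Ensembl gene from featureCounts (Subread 1.6.3), as their methods state for the synchronised follicular libraries. For the other libraries these steps are not given in the sources used here. Each table held 27054 identifiers. Total counts limit the precision of genes at low counts, and p-values cover the spread between these ewes only.

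Genes with at least 1 CPM in at least 10 of the 76 libraries were kept, which left 15448. The counts were scaled by TMM and fitted with edgeR 4.0.16 (R 4.3.3, quasi-likelihood test, two-sided) with breed, phase and the product of country and phase. A second fit with 8 group means gave the change of each breed and the interactions within a country, and the 38 natural follicular libraries were fitted apart. A gene passed at a Benjamini-Hochberg adjusted p under 0.05 and a fold, or ratio of folds, above 1.5. On simulated counts for the country by phase interaction over 15448 genes, 34% of genes changed by 1.5-fold were called, 82% at 2-fold, 90% at 3-fold and 98% at 4-fold, with 7 unchanged genes called.

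Named genes were the 10 passing genes with a symbol of smallest p in each direction (only 1 was negative), the 2 without a symbol of smallest p in each direction, the up to 4 members of each list of smallest p, and COX-1, MT-ND6, PTGS1, OXTR, GREB1, ESR2, FKBP5, MUC5AC, MUC5B, DES, ACTG2 and PI16. The first 15 of these are called the leading genes. The libraries, genes and lists were chosen with earlier results of these data known. Symbols came from the study's supplementary tables, which name 1352 identifiers. No genome of this build was used here, so no positions are given. 1 library whose title goes against its other labels was left out. Alternatives were DESeq2 1.42.0, limma 3.58.1, other filters and scalings, a replicate block, each breed or ewe left out, natural follicular ewes, and marker covariates. Some genes that passed are not reported here.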

Additional observations from a re-analysis of the deposited data

Results flagged for a closer look

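The phase change differed between the countries for 227 genes and between Suffolk and Belclare for 14, each by a test of the difference itself. The log2 interactions of the 15 leading genes were 3.16 for A2M, 2.51 for ATP12A, 2.22 for GALNT15, 1.6 for ENSOARG00000011110, 1.32 for FRMD3, 1.27 for CPT1A, 1.13 for CTSK and 0.91 for TMEM86A. They were 0.70 for ENSOARG00000002381, 0.69 for ZNF283, 0.69 for SLC26A11 and 0.60 for PRRG2, and on the negative side -2.17 for ENSOARG00000013745, -1.86 for ENSOARG00000000118 and -1.45 for ALOX12.

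Dixon's test for a single distant sample marked 9 of 105 pairs of a leading gene and a breed and phase group (8.57%), where chance marks about 1 in 20 groups. The Suffolk follicular group, with 11 ewes, was over the group size that the test was set up for and was not tested. ENSOARG00000000118 was at 19.1 CPM in Belclare follicular 2, with the nearest ewe of that group at 3.98, and at 24.8 CPM in Belclare luteal 7, with the nearest at 12.2. SLC26A11 was at 74.1 CPM in Fur luteal 8, with the nearest at 42.0, and at 15.2 CPM in Suffolk luteal 7, with the nearest at 29.0. PRRG2 was also lowest in Suffolk luteal 7, at 15.5 CPM against 25.8 in the nearest ewe. FRMD3 was at 9.13 CPM in Belclare luteal 10 against 5.03, and ZNF283 at 4.21 CPM in Belclare luteal 9 against 5.69. GALNT15 was at 0.486 CPM in Belclare follicular 1 against 1.41, and CTSK at 159 CPM in NWS follicular 2 against 113. No ewe was left out for these values.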

How the results depend on the processing

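Of the 227 genes, all that could be tested kept the sign of their interaction under every alternative tried except the one with natural follicular ewes (167 of 167 with at least 10 counts in every library, 227 of 227 elsewhere). The number that passed was 236 with DESeq2's size factors, 218 without a filter on low counts, 176 with at least 10 counts in every library, 236 from 8 group means and 300 with DESeq2's likelihood ratio test. It was 537 with no fold threshold (44.9% positive against 56.4%), 371 with limma-voom and a random block (47.2% positive), and 1 in a test against a ratio of 1.5. Without Fur it was 20, without NWS 48, without Suffolk 260 and without Belclare 155, of which 27.7% were positive and 66 were among the 227. With natural follicular ewes it was 28, and the interaction turned to 0.396 for ENSOARG00000013745, -0.0473 for CPT1A, -0.00822 for SLC26A11 and -0.0373 for KLF11. Of the 25 named genes that passed, 18 lost the call without Fur, 16 without NWS, 14 without Belclare and 3 without Suffolk, with fewer ewes in each fit. CPT1A, ALOX12, KLF11, SLC26A11, SCNN1D, ST6GAL2, HRC, MXRA8 and GPNMB lost it without Belclare, Fur or NWS. A2M lost it without Fur, and ATP12A without Belclare or NWS. HSD11B1 and FBLN7 lost it when any 1 breed was left out. CTSK and GALNT15 kept it without any 1 breed. The cause was not tested.

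With 1 ewe left out at a time, the count ran from 158 without Suffolk luteal 7 to 399 without Belclare follicular 2 (164 positive and 235 negative), and was 342 without NWS luteal 1. The alternatives that follow were chosen after seeing the data. The count was 288 without the 9 libraries on the side of the other phase, 205 without the 3 libraries of low correlation, and 329 without Suffolk luteal 7 and Belclare follicular 2 (40.7% positive). It was 610 with the smooth muscle covariate (70.3% positive), 334 with the epithelial covariate and 530 with both.

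Replicate numbers did not pair the ewes. Deviations of 249 pairs of the same number in different groups had a median correlation of -0.02, against 0.004 for other pairs, and 58 of the 249 exceeded 0.1. With the number as a replicate block 177 genes passed, 170 of them among the 227, and within Ireland 0 genes passed with edgeR in place of 14, with 1613 at an unadjusted p under 0.05. Counting depth limits genes near 1 CPM, such as GALNT15, SCNN1D and ATP12A at the luteal phase.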
